A study of Homo sapiens with 8 samples.

Results

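*LRP8*, *VLDLR*, *RELN* and *DAB1* are the core genes of reelin signalling, and the stitched H3K27Ac regions around them were described in 4 medulloblastoma lines. A region belonged to a gene when it overlapped the gene body or lay within 50 kb of its start site, with gene models from GENCODE release 44 on GRCh38. By this rule 80 of the 88550 deposited regions belonged to the 4 genes. MB002 gave 38 of its 26072 regions, D425 gave 17 of 26317, HD-MB03 gave 12 of 15286 and UW228 gave 13 of 20875. Counted by gene, *DAB1* held 26, 7, 8 and 7 regions in MB002, D425, HD-MB03 and UW228, and *RELN* held 8, 6, 0 and 3. *LRP8* held 3, 2, 3 and 2 regions, and *VLDLR* held 1, 2, 1 and 1.

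Reelin, the product of *RELN*, is a large secreted glycoprotein that guides the placement of neurons. It binds to 2 receptors of the LDL receptor family, VLDLR and LRP8 (also called ApoER2). The cytoplasmic tails of both receptors recruit the adaptor DAB1, which Src family kinases then phosphorylate. In the developing cerebellum reelin comes from granule cells and their precursors and directs the migration of Purkinje cells.

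H3K27Ac, an acetylation of histone H3 that marks active enhancers and promoters, was mapped by ChIP-seq. MB002, D425 and HD-MB03 are human Group 3 medulloblastoma (G3-MB) lines, and UW228 is labelled as a line of the SHH subtype. The labels name no treatment and no engineered change. Per line there was a single H3K27Ac library with a single input, so no spread between replicates exists, no test was run, and all values are of single libraries. MB002 and HD-MB03 were grown in a stem cell medium, whereas D425 and UW228 were grown with serum, so the medium and the line cannot be told apart. The headers of the UW228 values name another ROSE run than those of the G3-MB lines, and this run cannot be told apart from the subtype.

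The deposited signal of a region is its read density, scaled to the library's mapped reads, times its length. Signal here means ChIP minus input, set to 0 where input was higher. Ranks by this signal matched the deposited ranks for every region of the 4 lines, where rank 1 is the strongest. A super-enhancer (SE) is a region past the tangent cutoff of ROSE, and the other regions are typical enhancers (TEs). The authors called 363 SEs in MB002, 302 in HD-MB03, 431 in D425 and 753 in UW228. The relative input density of a region compares its input per base pair with the median region of its line, so 1 is the typical level. The depth of the libraries was unknown, and the median signal of a region lay between 717 in D425 and 1690 in UW228. Of 8 marker genes of G3-MB, 3 had an SE in MB002, 2 in HD-MB03, 3 in D425 and 0 in UW228. The photoreceptor and G3-MB regulator *OTX2* ranked 3, 3 and 5 in MB002, D425 and HD-MB03 and had no region in UW228. *MYC* had an SE in MB002 and D425 but ranked 763 in UW228 and 3111 in HD-MB03, and *NPR3* had regions in UW228 alone. Of 8 markers of the SHH subtype, 7 had a region and 0 had an SE in UW228, and the granule cell precursor factor *ATOH1* had no region in any line. Of these 7, 5 ranked nearer the top in HD-MB03 than in UW228, among them the SHH target genes *GLI1* and *PTCH1*, each with an SE in HD-MB03. *EYA1* and *SFRP1* ranked 1428 and 3545 in UW228 and had no region in HD-MB03.

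*LRP8*, the reelin receptor gene, lies at chr1:53242364-53328469 on the minus strand, and its reference transcript starts 399 bp inside this record. Its strongest region was an SE in MB002 at rank 215 and in HD-MB03 at rank 267. In D425 its best region was a TE at rank 3413, and in UW228 a TE at rank 5839. Among 20007 protein-coding genes, 3.35% had an SE in MB002, 3.11% in HD-MB03, 4.34% in D425 and 4.99% in UW228. By the rank of its best region *LRP8* stood at place 385 in MB002, 537 in HD-MB03, 4980 in D425 and 5518 in UW228. An SE in MB002 and HD-MB03 with none in D425 and UW228 was found for 77 coding genes, 0.385% of all. The paper had picked *LRP8* through SE calls that included these G3-MB lines, and the pattern counted is the one *LRP8* showed. The places and this share thus describe *LRP8* and are not independent evidence that it stands out.

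3 stretches of the locus are shown because the results below turn on them. They are the promoter and 300 bases from each of 2 stretches that regions of several lines shared. Capitals mark TAATCC or its reverse complement GGATTA, the core bound by homeodomain factors such as OTX2 and CRX, and would mark CACGTG, the E-box bound by MYC. Within each shared stretch, the 300 bases with the most TAATCC matches were taken, so their matches were chosen and are not a result. The first 2 sequences are read on the plus strand, opposite to *LRP8*, and the promoter on the strand of *LRP8*. The promoter is credited to RefSeq on GRCh38.p14.
Upstream stretch in MB002, D425 and HD-MB03, chr1:53368978-53369277: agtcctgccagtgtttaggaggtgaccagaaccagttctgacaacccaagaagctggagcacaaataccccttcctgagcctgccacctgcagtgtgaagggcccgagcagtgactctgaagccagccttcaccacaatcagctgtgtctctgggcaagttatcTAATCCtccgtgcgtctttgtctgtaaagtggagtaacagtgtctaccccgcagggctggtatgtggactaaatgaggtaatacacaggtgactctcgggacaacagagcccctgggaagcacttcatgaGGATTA
Stretch between exons 2 and 3 in MB002, HD-MB03 and UW228, chr1:53293176-53293475: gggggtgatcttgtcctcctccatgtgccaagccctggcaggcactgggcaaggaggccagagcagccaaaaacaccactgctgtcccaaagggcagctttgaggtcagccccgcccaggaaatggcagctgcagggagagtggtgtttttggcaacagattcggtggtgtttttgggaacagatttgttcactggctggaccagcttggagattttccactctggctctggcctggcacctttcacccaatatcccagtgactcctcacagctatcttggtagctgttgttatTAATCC
Promoter, chr1:53328071-53328320: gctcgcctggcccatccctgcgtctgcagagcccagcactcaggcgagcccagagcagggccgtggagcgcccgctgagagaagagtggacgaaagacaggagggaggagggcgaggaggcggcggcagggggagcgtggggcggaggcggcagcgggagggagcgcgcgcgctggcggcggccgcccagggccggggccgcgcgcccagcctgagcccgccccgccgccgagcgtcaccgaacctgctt

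The SE of MB002 at chr1:53279378-53336966 was 57.6 kb long and stitched 14 peaks. It reached from 8.50 kb upstream of the *LRP8* start site to 49.1 kb inside the gene, so it contained the promoter shown above. Its signal was 42817, with a signal of 0.743 per base pair against a median of 0.533 over the regions of MB002. The peaks covered 30.8% of its length. The rest was sequence joined by the stitching.

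In HD-MB03 the SE lay at chr1:53272596-53323808, from 4.66 to 55.9 kb inside the gene, and left the promoter out. The authors dropped peaks beside promoters, and the part of this filter here was not tested. The SE was 51.2 kb long and stitched 18 peaks that covered 49.2% of it. Its signal was 24684, and its signal per base pair of 0.482 was below the median of 0.508 over the regions of HD-MB03. The SEs of MB002 and HD-MB03 shared 44.4 kb, 77.2% of the first and 86.8% of the second. Both overlapped 4 exons of *LRP8*, and both were also within reach of *MAGOH*, a gene of the exon junction complex.

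Upstream of the gene, all 3 G3-MB lines had a region and UW228 had none within the window. In MB002 this region reached from 31.0 to 58.5 kb upstream with a signal of 26084 at rank 530. In D425 it reached from 31.3 to 50.8 kb upstream with a signal of 5716 at rank 3413, and was the best region of the gene. In HD-MB03 it reached from 37.0 to 51.6 kb upstream with a signal of 5585 at rank 2212. The lines shared 13.8 kb of it, at chr1:53365508-53379261, and the closest coding gene was *LRP8* in each of them. The upstream sequence shown above comes from this stretch and lies from 40.5 to 40.8 kb upstream. With a window of 100 kb UW228 gained a region from 84.1 to 85.9 kb upstream, at rank 10150 and closest to *DMRTB1*.

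The intron between exons 2 and 3 runs from 1.60 to 38.8 kb inside the gene, and every line had signal in it. In D425 a TE of 9.72 kb with 4 peaks lay from 2.28 to 11.996 kb inside, with a signal of 4243 at rank 4458. MB002, D425 and HD-MB03 shared 7336 bp of this intron. UW228 had both of its regions here, of 4171 bp at rank 5839 and 1243 bp at rank 12780. The first, with a signal of 4554, lay entirely inside the SEs of MB002 and HD-MB03. The second, with a signal of 1015, overlapped regions of MB002 and D425. No stretch of the locus was covered in all 4 lines.

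Near the far end of *LRP8*, MB002 and HD-MB03 had a further region. It was 12.4 kb long at rank 7118 in MB002 and 2.25 kb long at rank 3074 in HD-MB03. The HD-MB03 region had 1.64 signal per base pair, the highest of the 10 *LRP8* regions. In both lines the closest start site was that of *MAGOH*, and the regions were also assigned to *CZIB*.

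**Figure D1:**
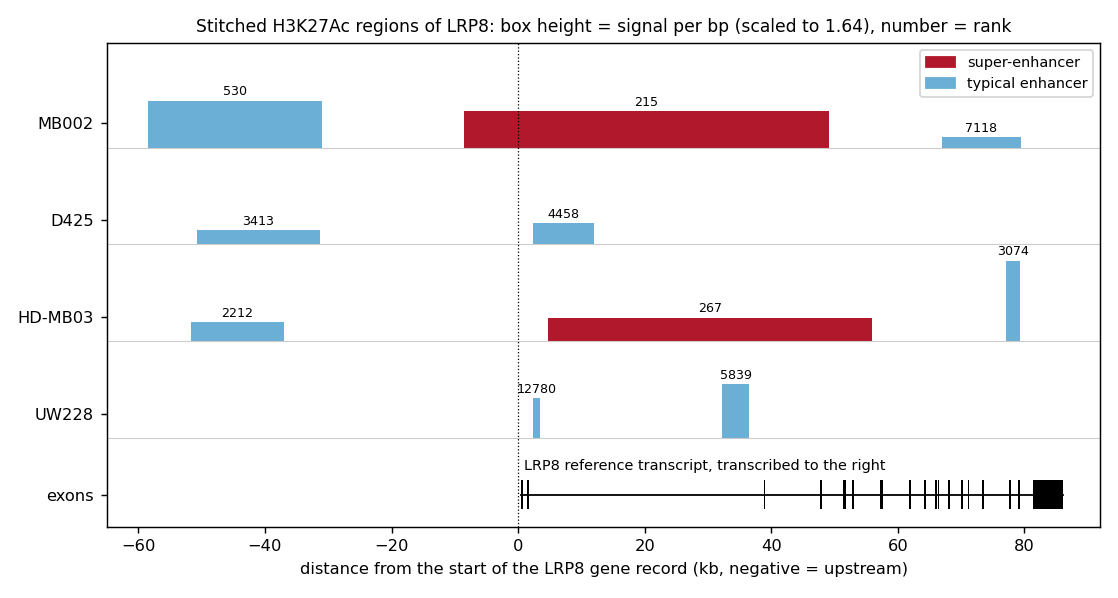
Stitched H3K27Ac regions of *LRP8* in the 4 lines against the distance from the start of the gene record in kb, with the exons of the reference transcript underneath. Box height is signal per base pair, the number above a box is its rank, and red marks the SEs, which were found in MB002 (rank 215) and HD-MB03 (rank 267).

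Summed over the regions of the gene, the signal of *LRP8* was 71492 in MB002, 33962 in HD-MB03, 9959 in D425 and 5569 in UW228. MB002 and HD-MB03 were thus 12.8 and 6.10 times as high as UW228, and D425 was 1.79 times as high. With each sum divided by the median signal of its line, these ratios were 24.4, 12.2 and 4.22. With a window of 25 kb, or the gene body alone, the sum of D425 was 4243 and so below the 5569 of UW228, and that of MB002 was 45407. With signals divided by their own relative input density, the sums were 44436 in MB002, 31905 in HD-MB03, 10464 in D425 and 6720 in UW228, so the gap between MB002 and UW228 was smaller. It was also smaller without the regions at start sites, at 28675 against 4554. The regions covered 97.4 kb in MB002, 68.0 kb in HD-MB03, 29.2 kb in D425 and 5.41 kb in UW228. Per base pair of this length UW228 moved from last to first, and the order among the G3-MB lines stayed the same. UW228 had 1.03 signal per base pair, MB002 had 0.734, HD-MB03 had 0.499 and D425 had 0.341. In UW228 peaks filled 100% of both regions, whereas in the 2 regions of D425 they filled 20.9% and 22.0%. Against UW228, the larger summed signal of the G3-MB lines went with a larger stitched length, and with a lower signal per base pair. Ranked by signal per base pair, the best *LRP8* region stood at 3997 in MB002, 946 in HD-MB03, 16170 in D425 and 3518 in UW228. In MB002 this was the upstream region, at 0.951 per base pair. In HD-MB03 it was the region near the far end, closest to *MAGOH*, at 1.64. Both SEs had lower values and would not be among as many top regions as the authors called SEs.

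Input was raised around *LRP8* in MB002. The SE had a relative input density of 1.62, the regions within 500 kb a median of 1.62 and those within 5 Mb a median of 1.54. In HD-MB03 the SE had 1.04 and the regions within 500 kb 1.12. In D425 the 2 regions had 0.910 and 0.986, and in UW228 they had 0.632 and 0.890. With each region's signal divided by its own relative input density, the best region of *LRP8* moved from rank 215 to 445 in MB002 and from 267 to 289 in HD-MB03. Both stayed past the recomputed cutoff, which then took 964 regions in MB002 and 379 in HD-MB03, so rank 445 would lie outside the 363 regions called by the authors. Divided by the median relative input density within 500 kb, the best region ranked 457 in MB002 and 325 in HD-MB03. These ranks would lie outside the 363 and 302 regions called by the authors. They stayed SEs because the recomputed cutoff took 846 regions in MB002 and 1044 in HD-MB03. Leaving out regions that overlap the 2.5 kb on either side of the start site removed the SE of MB002 and left rank 530, a TE. Without input subtraction HD-MB03 stood at rank 232, and the cutoff then took 224 regions, so its SE call was lost.

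Matches to TAATCC were sparse in the regions of *LRP8*. They held 0.411 matches per kb in MB002, 0.382 in HD-MB03, 0.479 in D425 and 0.185 in UW228, against 0.878, 0.776, 0.907 and 0.811 over all regions of these lines, in the same order. Both strands were searched, and every match was counted, also where matches shared bases. TAATCC also stands in the consensus of the Alu repeat, which is frequent in human introns. The SE of MB002 held 16 matches, 0.278 per kb, against 0.861 per kb over the 225 other regions that were 0.8 to 1.2 times as long. The SE of HD-MB03 held 15 matches, 0.293 per kb, against 0.749 over 153 other regions of like length. All of these other regions held at least 1 match. Of CACGTG, both SEs held 11 matches, 0.191 per kb in MB002 and 0.215 in HD-MB03, against 0.120 and 0.190 over the regions of like length. A match is a description of the letters and not a bound site. Of windows of 300 bases laid over all regions of MB002, 22.1% held TAATCC, 3.64% held it at least 2 times, as the upstream sequence shown above does, and 3.27% held CACGTG. The promoter shown above held neither motif. Among 35116 promoters of RefSeq read over the same 250 bases, 5.62% held TAATCC and 6.34% held CACGTG. The *LRP8* promoter was 77.2% G and C, against a median of 58% over all promoters.

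The study's 2 shRNAs against *LRP8* are shown with their place, since they mark exons that the SEs do not contain. Each matched GRCh38 at 1 site, in the coding part of an exon.
shLRP8-1, exon 7, chr1:53271276-53271296: GACCTCAAGATTGGCTTTGAA
shLRP8-2, exon 15, chr1:53257444-53257464: CACCTCAATCTACCTCAACTA
The site of shLRP8-1 lay in no region of any line, and that of shLRP8-2 lay in the region of MB002 near the far end of the gene.

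*VLDLR*, the other reelin receptor gene, lies at chr9:2621182-2660056 on the plus strand and had no SE in any line. Its best region ranked 2491 in MB002, 5587 in HD-MB03, 6840 in D425 and 3841 in UW228. The summed signal was 8913 in MB002, 1546 in HD-MB03, 3092 in D425 and 7322 in UW228. Unlike at *LRP8*, HD-MB03 was the lowest of the 4 lines here, and UW228 lay between MB002 and D425. This order of UW228 depended on the window, since with 25 kb it had no region and with 100 kb D425 stood above it, at 16199 against 7322.

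The regions of *VLDLR* fell in 2 places. In the G3-MB lines they lay inside the gene, from 5.24 to 13.5 kb past the start site in MB002, from 10.6 to 18.9 kb in D425 and from 10.9 to 13.4 kb in HD-MB03. UW228 had no region in the gene body. Its region lay upstream, from 49.4 to 65.5 kb before the start site, with a signal of 7322 and 6 peaks over 16.0 kb. D425 had a weak region in the same place, with a signal of 671 at rank 13513, of which peaks filled 7.11%. Both of these upstream regions reached less than 1 kb into the window of 50 kb. Beyond that window, the UW228 region also overlapped a region of HD-MB03, with a signal of 1012 at rank 7003, and a region of 0.233 kb in MB002 at rank 25935. With a window of 100 kb MB002 gained an SE at rank 292, which lay from 85.0 to 101 kb past the start site and was closest to *KCNV2*, a potassium channel gene expressed in photoreceptors. The relative input density of the 5 regions lay between 0.769 and 1.22. TAATCC stood at 1.68 matches per kb in the intron region of MB002, from 14 matches, and at 1.195 in that of HD-MB03, from 3 matches. Over all regions of these lines it stood at 0.878 and 0.776. The regions of D425 in both places together had 0.734, against 0.907 over all its regions. The upstream region of UW228 had 0.686, against 0.811 over all.

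*RELN*, the gene of the ligand, lies at chr7:103471381-103989658 on the minus strand and had no SE in any line. Its best region ranked 1712 in MB002, 2203 in D425 and 6268 in UW228. Divided by the relative input density within 500 kb, the D425 region moved to rank 3883. HD-MB03 had no region in the gene body or within 50 kb of the start site. This says that no stitched region was listed there, not that the mark was absent. Any region was found for 70.8% of coding genes in MB002, 58.2% in HD-MB03, 72.9% in D425 and 61.8% in UW228. *RELN* spans 518278 bp, and long genes meet more regions. Of the 323 coding genes of at least 500 kb, 93.5% had a region in MB002, 78.0% in HD-MB03, 88.9% in D425 and 74.0% in UW228. In the same order, the median such gene had 7, 2, 5 and 4 regions, against 8, 0, 6 and 3 for *RELN*.

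The strongest *RELN* region differed in place between the lines. In MB002 it was 23.7 kb long, lay from 29.8 to 53.5 kb inside the gene, and held a signal of 12038 of the 16094 summed over the gene. In D425 it was 7.76 kb long, lay from 326 to 333 kb inside, and held 8545 of 10512. In UW228 it was 7.50 kb long, lay from 349 to 356 kb inside, and held 4132 of 5819. Of the 8 regions of MB002, 2 overlapped a region of D425 and 0 a region of UW228, whereas over all regions of MB002 these shares were 45.0% and 20.3%. No region of any line covered the *RELN* start site. The authors dropped peaks beside promoters, so this absence does not show that the mark was missing there. The region closest to the start site was one of 3.32 kb in MB002 from 4.54 kb upstream, at rank 13791. The relative input density had a median of 0.959 in MB002, 1.43 in D425 and 1.19 in UW228.

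**Figure D2:**
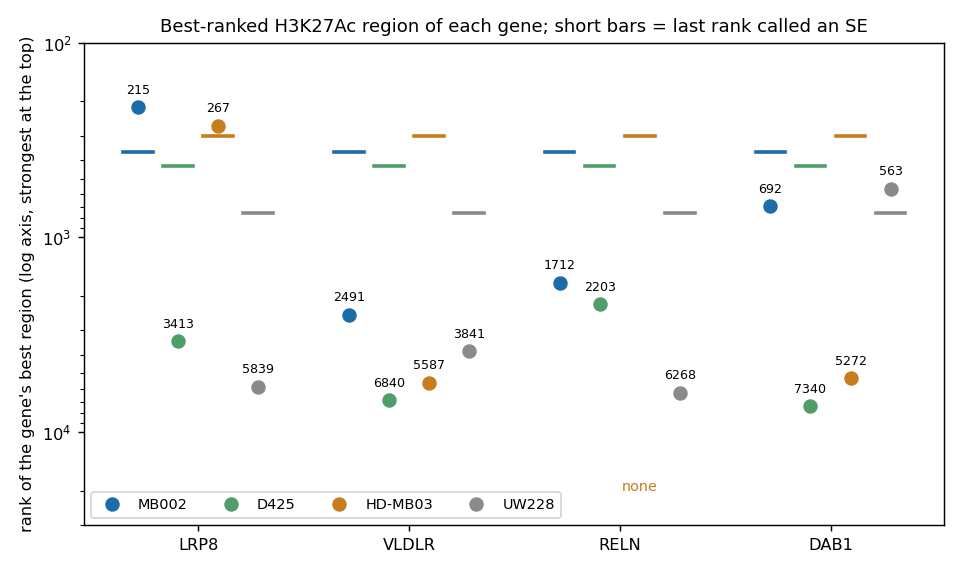
Rank of the strongest H3K27Ac region of *LRP8*, *VLDLR*, *RELN* and *DAB1* in each line, on a log axis with the strongest at the top, with short bars at the last rank called an SE. The points of *LRP8* in MB002 (215) and HD-MB03 (267) and of *DAB1* in UW228 (563) lie above their bars, and *RELN* has no region in HD-MB03.

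*DAB1*, the gene of the adaptor, has a gene record of 1551957 bp at chr1:56994778-58546734 on the minus strand. The reference transcript starts 1122674 bp inside this record, at an internal promoter, and ends with it. The far start of the record lies 68 bp from the start of *OMA1*, a mitochondrial protease gene. Regions near the far start are therefore shared between genes, and the rule cannot tell which gene they act on.

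*DAB1* had an SE in UW228 at rank 563 and none in the G3-MB lines, where its best region ranked 692 in MB002, 5272 in HD-MB03 and 7340 in D425. In UW228, 10.2% of the coding genes of at least 500 kb had an SE. The UW228 SE was 24.4 kb long, held 9 peaks and a signal of 29232, and lay from 25.8 to 50.2 kb upstream of the far start. Its closest coding gene was not *DAB1*, and it was also assigned to *OMA1*. With the gene body alone the best *DAB1* region of UW228 stood at rank 5716, and with the reference transcript at 6472, so the SE call rested on the far start and its window. It was also lost, at rank 866, with the signal divided by the median relative input density within 500 kb. The 3 next strongest regions of UW228 lay from 112 to 152 kb inside the record, with signals from 4183 to 4692.

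MB002 had 26 regions of *DAB1*, and the other lines had 7 or 8. Of the other 322 coding genes of at least 500 kb, 3 had as many regions or more in MB002, 40 in HD-MB03, 128 in D425 and 114 in UW228. Per Mb of gene and window, MB002 had 16.2 regions, against a median of 8.56 over these genes, and 47 of them were denser. The summed signal was 83143 in MB002, 4304 in HD-MB03, 6797 in D425 and 47805 in UW228, and with the gene body alone that of UW228 was 18573. In MB002 the strongest region, at rank 692, covered the far start with a signal of 22397 and was closest to *OMA1*. The second, at rank 1413, lay from 741 to 750 kb inside the record with a signal of 13725. The 26 regions had a median relative input density of 1.497, against 0.976 in HD-MB03, 0.783 in D425 and 1.39 in UW228. The weakest of them, at rank 26033, had more input than ChIP and so a signal of 0. With division by its own relative input density the best region of MB002 moved to rank 1049.

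The internal start of the reference transcript was covered by a region in MB002 and in HD-MB03. These were 2.85 kb at rank 4367 with a signal of 4940, and 0.957 kb at rank 8715 with a signal of 624. D425 and UW228 had no region across it, and the part of the authors' promoter filter in this was not tested. All 8 regions of HD-MB03 overlapped regions of MB002, whereas over all regions of HD-MB03 the share that overlapped one of MB002 was 61.2%. In the other direction, 8 of the 26 regions of MB002 overlapped one of HD-MB03, against 35.2% over all regions of MB002. Of the 26, 2 overlapped a region of D425, against 45.0% over all, and 2 of the 7 regions of D425 overlapped one of MB002, against 45.4%. Counted over the reference transcript and its window, *DAB1* had 9 regions in MB002, 3 in HD-MB03, 5 in D425 and 2 in UW228.

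**Figure D3:**
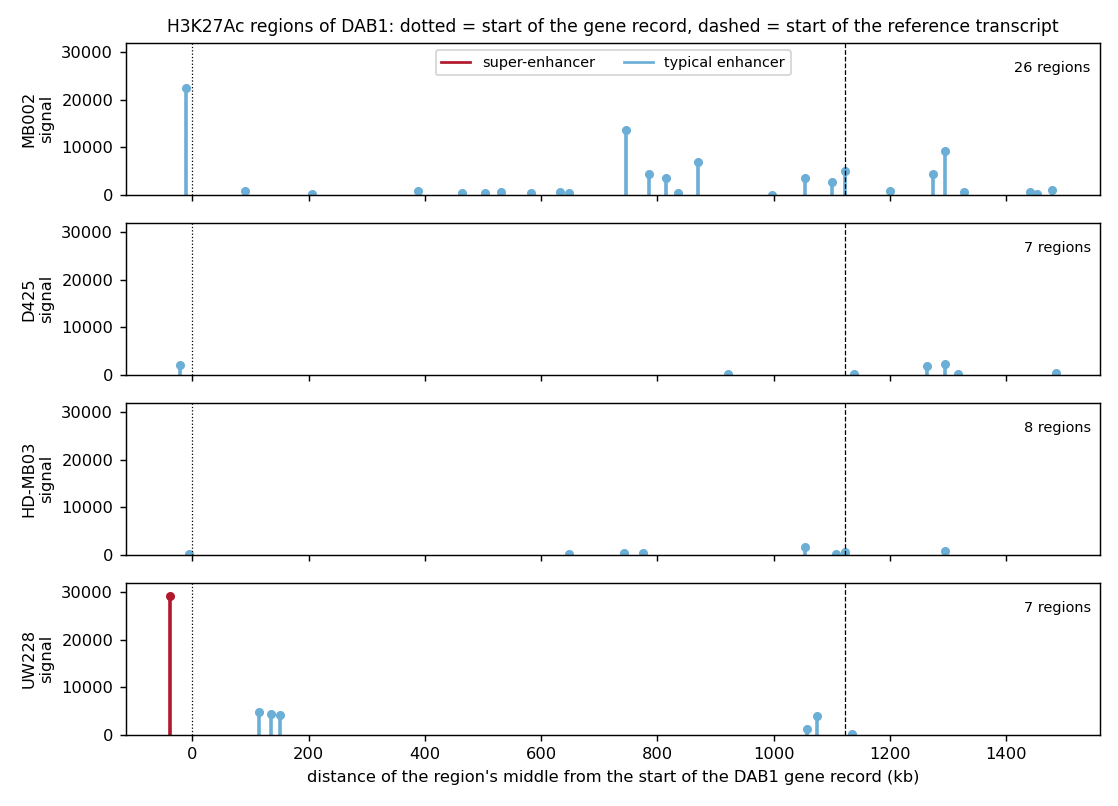
Signal (ChIP minus input) of each *DAB1* region against the distance of its middle from the start of the gene record in kb, with 1 panel per line and the same axis in all. MB002 has 26 regions spread over the record, and the SE of UW228 (red, 29232) lies upstream of the dotted far start and not at the dashed start of the reference transcript.

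Side by side, each line had SEs at no more than 1 of the 4 genes. The number was 1 in MB002 and in HD-MB03 (*LRP8*), 0 in D425 and 1 in UW228 (*DAB1*). In MB002 the summed signal was highest at *DAB1* and then at *LRP8*, and with the reference transcripts *LRP8* came first. In HD-MB03 it was highest at *LRP8*, with *DAB1*, *VLDLR* and *RELN* after it, under every window and input scaling tried. In D425 *RELN* and *LRP8* lay close together, at 10512 and 9959, but the order changed with the setting. Without input subtraction *LRP8* came first, at 13683, with *DAB1* at 12617 and *RELN* at 12222. With a window of 25 kb *LRP8* fell to 4243, below *DAB1* at 6797, and with 100 kb *VLDLR* was highest, at 16199. With the input density within 500 kb divided out, *LRP8* held 9643, *DAB1* 9195 and *RELN* 6225. In UW228 *DAB1* was highest, and the order of the other 3 genes, which lay between 5569 and 7322, changed with the window and the input scaling. With the reference transcripts *DAB1* held 4210 there and was below *LRP8*. The gene records differ in length, and the sums were not scaled to it.

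**Figure D4:**
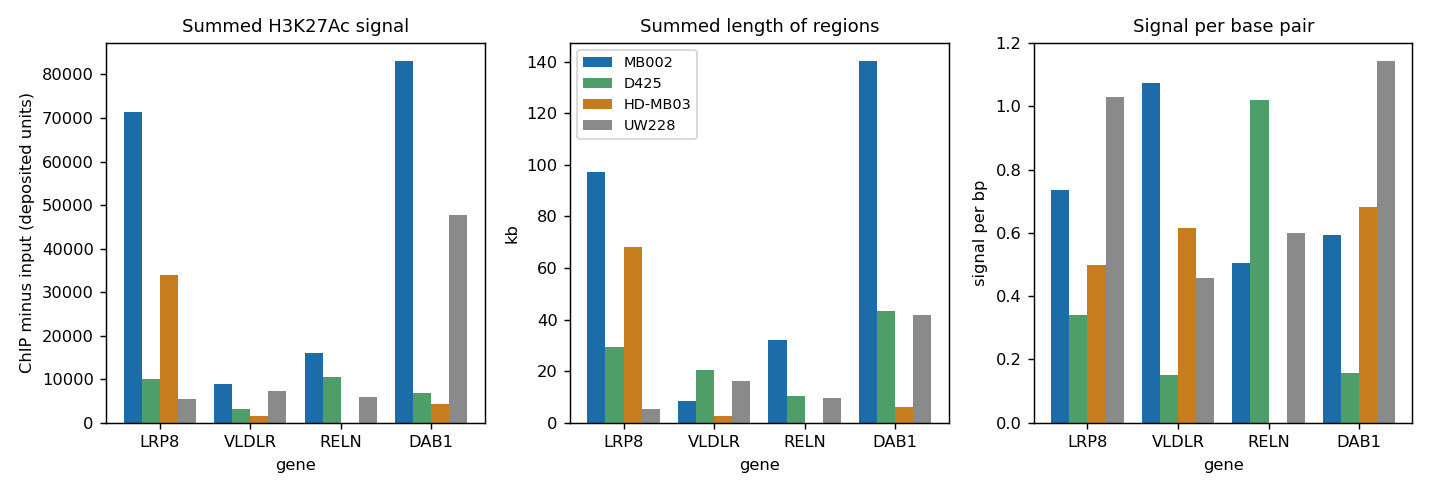
Summed signal, summed length of regions in kb and signal per base pair for the 4 genes, with 1 bar per line and axes from 0. At *LRP8* the summed signal is highest in MB002 (71492) and HD-MB03 (33962), whereas the signal per base pair is highest in UW228 (1.03).

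Around the 4 genes, a list of 62 genes of the reelin pathway was examined, which was drawn up with earlier results of these data known. Of the 58 other genes, 5 had an SE in MB002, 4 in HD-MB03, 4 in D425 and 8 in UW228, which is 8.62%, 6.90%, 6.90% and 13.8%. These shares stood against the 3.35%, 3.11%, 4.34% and 4.99% of all coding genes. In the same order of lines, 4, 16, 11 and 13 of the 58 genes had no region. The median best rank of those with a region was 6063, 1596.5, 4519 and 4633, against 6727, 4058.5, 6186 and 6841 over all coding genes with a region. In all, 18 of the 58 genes had an SE in at least 1 line, and 11 of the 12 with the strongest SEs are described. The 6 others had their SE in D425 or UW228. Receptors and co-receptors, *LRP8* and *VLDLR* included, had SEs at 2 of 15 genes in MB002, 1 in HD-MB03, 1 in D425 and 4 in UW228. The 3 genes of DAB1 turnover had no SE in any line.

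Of the ligands and their proteases, *CLU*, which codes for clusterin, a ligand of both receptors, had an SE in MB002 (rank 100) and in HD-MB03 (rank 216), as *LRP8* did. In D425 its best region was a TE of 3532 bp (rank 2521), but its 25 regions there summed to a signal of 39143. This was above the 27053 of HD-MB03, so unlike *LRP8* the gene was not low in D425 by summed signal. *CLU* had no region in UW228, and both SEs were closest to *SCARA3*. *ADAMTS4*, a protease that cleaves reelin, had an SE in MB002 at rank 293, which was closest to another gene. Among receptors and co-receptors, *EFNB1*, which codes for an ephrin that clusters with the reelin receptors, had an SE in MB002 at rank 164 and no region in the other lines. The integrin genes *ITGA3* and *ITGB1* had SEs in UW228 at ranks 167 and 170, with best ranks between 1664 and 16272 in the G3-MB lines where they had a region.

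Of the adaptors, *DAB2*, a relative of *DAB1*, had an SE in UW228 at rank 155, TEs in D425 at rank 514 and in MB002 at rank 8031, and no region in HD-MB03. *RAPGEF1*, the exchange factor that acts downstream of phosphorylated DAB1 and the Crk proteins, had an SE in all 3 G3-MB lines, at ranks 137 in MB002, 165 in HD-MB03 and 83 in D425, and a TE in UW228 at rank 1544. The SE of D425 was closest to *PRRT1B*. *RAPGEF1* was the only gene of the list with an SE in more than 2 lines. *CDK5R1* and *CDK5*, the activator and the kinase of a pathway that acts in parallel to reelin, had SEs in HD-MB03 at ranks 144 and 195, and the *CDK5* SE was closest to *AGAP3*. *NOTCH1*, the gene of a Notch receptor, had an SE in D425 at rank 59, closest to *EGFL7*. *MAP1B*, which codes for a microtubule-associated protein, had an SE in UW228 at rank 181. The SE of *ADAMTS4* in MB002 lies on chromosome 1, as *LRP8* does, and had a relative input density of 1.62. Other named SEs lay on both sides of 1, with 1.63 at *CDK5* in HD-MB03, 1.49 at *DAB2* and 0.535 at *ITGA3* in UW228. The part of input in these ranks was not tested for the genes of the list.

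**Figure D5:**
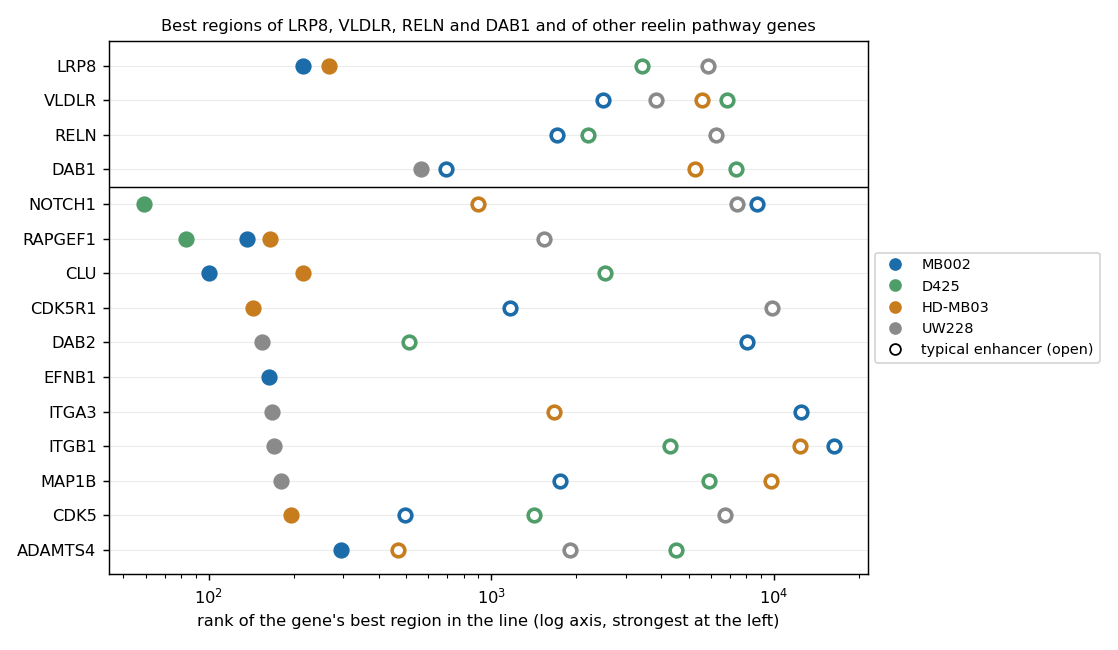
Rank of the strongest region of *LRP8*, *VLDLR*, *RELN* and *DAB1* and of 11 other reelin pathway genes in each line, on a log axis with the strongest at the left. Filled points are SEs and open points TEs, a missing point means no region, and *RAPGEF1* has filled points for MB002 (137), D425 (83) and HD-MB03 (165).

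The genes whose pattern over the 4 lines was most like that of *LRP8* were *PIPOX*, *VAMP5*, *RNF181*, *SEZ6* and *FGF12*. Likeness was the distance between the log10 best ranks over the 4 lines, with the genes that share regions with *LRP8* left out. The distances lay between 0.363 for *PIPOX* and 0.428 for *FGF12*. *PIPOX* ranked 223 in MB002, 413 in HD-MB03, 1928 in D425 and 8920 in UW228. *SEZ6* had the same ranks of 223 and 413 in MB002 and HD-MB03, with 5288 in D425 and 12349 in UW228. *VAMP5* and *RNF181* shared their best regions, at ranks 207, 255, 5720 and 2928 in the same order of lines as *PIPOX*. *FGF12*, a fibroblast growth factor homologous factor of neurons, ranked 122, 536, 4004 and 8482. With 4 lines and no replicates this order is a description.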

How the data were processed

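The libraries were H3K27Ac ChIP-seq and input of 4 lines, 1 of each kind per line. The authors aligned reads to GRCh38 with Bowtie2 2.3.0, handled alignments with SAMtools 1.9, called peaks over input with MACS2 2.2.6, and stitched and ranked them with ROSE. They dropped multi-mapped and duplicate reads and peaks beside promoters, and joined neighbouring peaks, within 12 kb per the file headers and a slightly longer distance in the methods, so a joined region can still span a start site. The ChIP of UW228 is not described in the methods used here, which cover the other lines. The deposited signal is read density scaled to mapped reads, times region length, without input subtraction. The deposited score of each region is its rank, with an SE call beside it. Counts and depth were not given, so no counting precision could be stated.

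Regions were read with Python 3.11.15, numpy 2.4.6 and pandas 2.3.3, and plots were drawn with matplotlib 3.10.9. All regions on the main chromosomes ended within the GRCh38 chromosome lengths. Input was subtracted and regions were assigned to GENCODE 44 coding genes within 50 kb of the start site or over the gene body. The assignment and the ROSE cutoff were tested on simulated data. Members and lists were chosen with earlier results of these data known. Genes named were the 4 members, the 12 listed pathway genes of lowest rank with an SE, those sharing the best *LRP8* region, the 5 closest in log10 best rank, and markers. *CZIB*, *DMRTB1*, *KCNV2*, *OMA1* and the genes closest to an SE were named after their values were seen. Protein sequences and RNA-seq were not used here, and a few items, 1 of the 12 pathway genes among them, are not reported here.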

Additional observations from a re-analysis of the deposited data

How the results depend on the processing

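With 1 library per line, leaving out a replicate was not an option and there was no replicate error. No paired analysis was possible because no result came from a test. Over 10 alternatives and the 15 gene and line pairs with a region, 147 best ranks were computed. Of these, 138 stayed on the same side of the SE cutoff, 8 lost the call and 1 gained it. Only *LRP8* in MB002 and HD-MB03 and *DAB1* in UW228 had an SE at the main setting, so all 8 losses were theirs. The other pairs were TEs, most of them ranked far past the last SE, and several settings returned the same region. The 138 therefore does not measure how stable the SE calls were. Ranking by signal per base pair put the best *LRP8* region at 3997 in MB002 and 946 in HD-MB03, neither of them the SE. It left 0 of the 4 genes with an SE in both lines. Per base pair over all *LRP8* regions together, 0 of the 3 Group 3 lines exceeded UW228. The best region of HD-MB03, near the far end and closest to *MAGOH*, still ranked above that of UW228 (3518). By summed signal all 3 lines exceeded UW228, but 2 did with a window of 25 kb or the gene body alone, where D425 fell below it. Leaving out regions at start sites put *LRP8* at 530 in MB002, with 0 genes with an SE. Without input subtraction it stood at 232 in HD-MB03, with 0 genes with an SE. A window of 100 kb gave MB002 2 genes with an SE, since *VLDLR* reached rank 292. UW228 had 0 genes with an SE when input within 500 kb was divided out, with a window of 25 kb, with the gene body alone and with the reference transcript, where *DAB1* stood at 866, 5716, 5716 and 6472. Over chromosomes 1 to 22 and X the recomputed cutoff took 355, 407, 302 and 752 SEs in MB002, D425, HD-MB03 and UW228, near the authors' numbers, but it moved with the scaling, from 224 to 1044 SEs in HD-MB03. Of 80 region numbers under other windows and gene models, 64 stayed within 1.5 times.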
